A study of Sus scrofa with 12 samples.

Results

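The 37 genes described here encode the enzymes, cofactors and transcription factors by which the liver makes fatty acids and joins them to glycerol as triacylglycerol. They were listed by name, not by a cutoff on measured values, and found through the gene symbol of the array annotation or, where that was empty, the symbol in its mRNA description. All 37 were found among 25388 transcript clusters (the probe sets of the array, about 1 for each transcript), 28 through the symbol and 9 through the description. In the study, 5-week-old male cross-bred piglets, kept in pairs, were given sodium pivalate by mouth. Pivalate binds carnitine and is lost with it in urine, and the question was what a lasting loss of carnitine does to the liver. Group CON (6 pigs) received NaHCO3 solution and group PIV (6 pigs) received 30 mg sodium pivalate per kg body weight in the same solution, each day for 28 days. Both groups ate the same diets, low in carnitine, and were killed in the post-prandial period, and liver RNA of each pig was measured on 1 Porcine Gene 1.0 ST array.

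In liver, ATP-citrate lyase turns citrate into acetyl-CoA, acetyl-CoA carboxylase makes malonyl-CoA from it, and fatty acid synthase condenses these units into palmitate with electrons from NADPH. Elongases and desaturases lengthen palmitate and add double bonds, and acyl groups are then attached stepwise to glycerol 3-phosphate until diacylglycerol acyltransferases complete the triacylglycerol, which is stored or exported in very low density lipoprotein (VLDL). The pathway is known for its rise after carbohydrate-rich meals, driven by SREBP-1c, a product of SREBF1 that responds to insulin, and by ChREBP, the product of MLXIPL, which responds to glucose.

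Values are log2 signals after RMA (a normalization across arrays), so a difference of 1 is a 2-fold difference. They compare pigs for the same gene and give no order of abundance between genes. Array medians ranged from 4.75 to 4.88, and Pearson's r between arrays from 0.977 to 0.991. The first principal component held 20.3% of the variance, with CON pig K22 alone at its far end. K22 also had the lowest weight, 0.52, when arrays were weighted by their fit to the model, so values without K22 are given beside the results that it moves most. Of 8 hepatocyte markers, 7 were measured, with group means between 11.30 and 12.89. No gene of 8 lists of cell type markers passed the filter described below. Of 6 adipocyte markers, 2 had a mean of at least 5, and their summed level ranged from 6.73 to 6.99 in CON and from 6.73 to 7.04 in PIV. All 5 T cell markers had a higher mean in PIV (median log2 FC 0.25), with summed levels from 6.65 to 7.53 in CON and from 7.00 to 7.69 in PIV. Only 2 of these 5 had a mean of at least 5, and their lowest unadjusted p by limma was 0.086. Their part in the results was not tested.

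A log2 signal of 5 or more in 6 or more of the 12 pigs was found for 30 of the 37 genes. The other 7 (ACACB, ME1, ELOVL3, ELOVL7, GPAT3, AGPAT4 and AGPAT5) were dim on this array, where a difference is hard to see. FADS1 and THRSP each had a pair of clusters with identical values in every pig, which were counted as 1. All 9 genes found through the description (FASN, ELOVL5, ELOVL6, FADS2, SREBF1, AGPAT3, PNPLA3, TKT and IDH1) were marked in the annotation as open to cross-hybridisation. For these, RNA of similar genes may add to the signal. A separate field of the annotation gave FADS1 and THRSP cross-hybridisation type 3, and the other genes of the 37, these 9 included, type 1. The fields thus did not single out the same genes, and which of them holds was not tested.

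No gene of fatty acid and triacylglycerol synthesis differed between the groups by the filter of the study's methods, a fold change (FC) of more than 1.2 up or down together with an unadjusted p under 0.05. By limma, which fits all clusters together, 0 of 37 passed it, where 1.82% of all 25385 clusters tested did, and 0 of 37 had an unadjusted p under 0.05, where 3.63% of all clusters did. The methods' t-test also passed 0 of the 37 genes, against 1.18% of all clusters. After Benjamini-Hochberg adjustment over all clusters no cluster had a p under 0.05. In these bulk samples, fewer cells of a type and less RNA per cell cannot be told apart.

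The group means lay close together beside their errors. The median log2 FC of the 37 genes (PIV minus CON) was 0.01, with 20 higher and 17 lower in PIV, beside 0.01 over all clusters. The range was from -0.18 for ACACA to 0.30 for THRSP, and THRSP was the 1 gene beyond a 1.2-fold difference. The SE of the log2 FC ran from 0.08 to 0.28. The 95% interval lay within a 2-fold change in both directions for all 37 genes, within 1.5-fold for 32 and within 1.2-fold for 6 (TKT, ELOVL7, GPAT4, AGPAT1, LPIN3 and MTTP). The 5 genes whose interval reached past 1.5-fold were THRSP, ELOVL2, FADS1, GPAT3 and PNPLA3. The groups overlapped for each of the 37 genes, where 0.158% of all clusters had groups that did not overlap. For 19 of the 37 genes, each of them among the 30 brighter ones, all 6 PIV pigs lay within the CON range, beside 34.7% of all clusters and 38.5% of bright ones. The top of the CON range was K22 for 20 of the 30 brighter genes, and this count was not taken without K22.

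**Figure D1:**
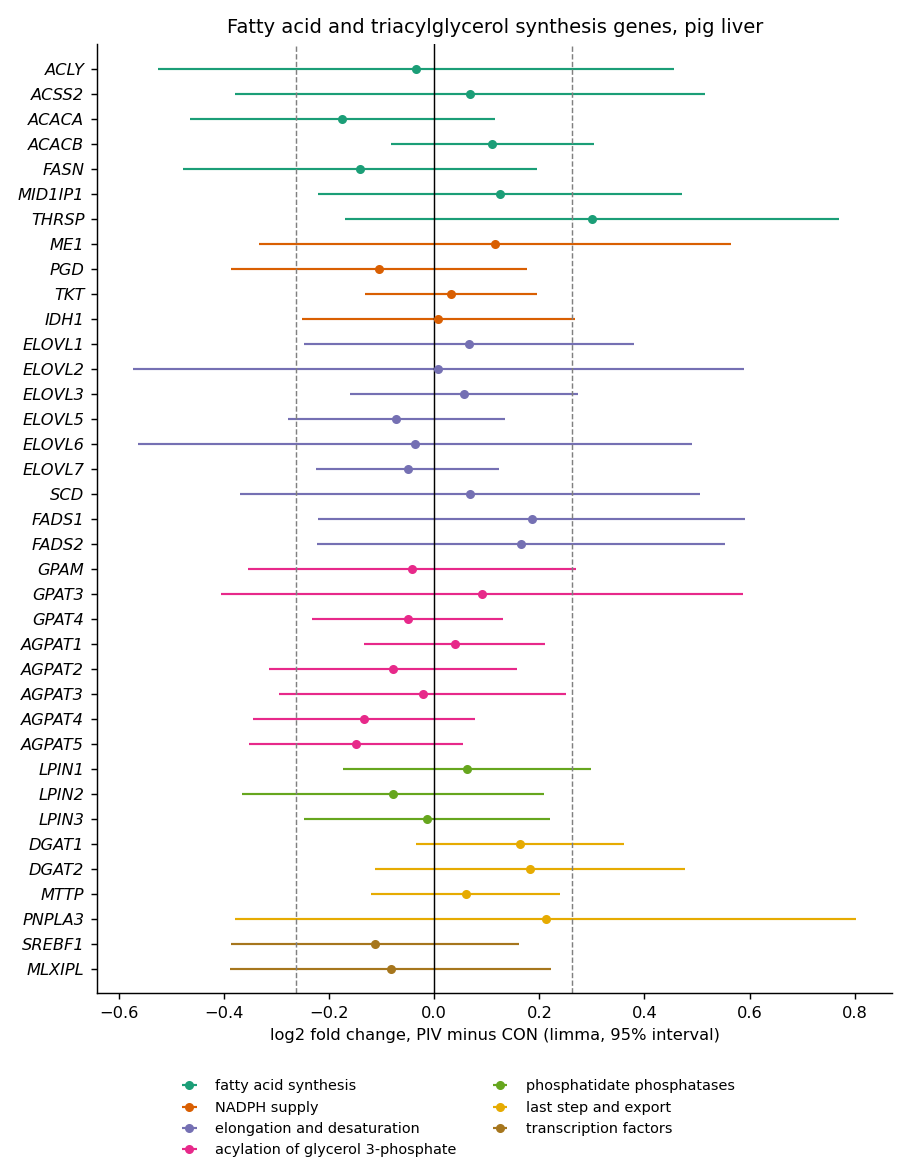
Log2 fold change (PIV minus CON, x axis) of the 37 genes with the 95% interval of limma, 6 pigs per group, coloured by step of the pathway. Each interval crosses the solid line at 0; the dashed lines mark a 1.2-fold difference, which the estimate of THRSP (0.30) alone passed.

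Among the genes that make palmitate, ACLY, the ATP-citrate lyase, ranged from 6.34 over a median of 7.14 to 8.08 in CON and from 6.76 over 7.00 to 7.26 in PIV. K1 and K3 were the 2 lowest of all 12 pigs and K22 the highest, and the PIV pigs lay between them. The log2 FC of ACLY was -0.03 ± 0.23 (SE; exact permutation p = 0.926, two-sided as are all tests given here). ACSS2, which makes acetyl-CoA from acetate, had the same pigs at its ends and a log2 FC of 0.07 ± 0.21 (SE).

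ACACA, the acetyl-CoA carboxylase that supplies malonyl-CoA for synthesis, ranged from 7.51 over a median of 8.01 to 8.39 in CON and from 7.56 over 7.76 to 8.24 in PIV. In PIV, 5 pigs were at 7.89 or below and P10 stood above them at 8.24. Its log2 FC, -0.18 ± 0.14 (SE; exact permutation p = 0.281), was the lowest of the 37. Without CON pig K23, the lowest CON pig for this gene, ACACA passed the filter at -0.27 (limma, unadjusted p = 0.0432), and it was then 1 of 37 genes past it, beside 2.65% of all clusters. ACACB, the carboxylase isoform at the mitochondrial surface whose malonyl-CoA restrains carnitine palmitoyltransferase 1, was dim at 3.58 ± 0.14 in CON and 3.69 ± 0.15 in PIV (mean ± SD, n = 6 each).

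FASN, the fatty acid synthase, ranged from 8.77 over a median of 9.36 to 10.01 in CON and from 9.01 over 9.22 to 9.40 in PIV. All PIV pigs lay inside the CON range, whose ends were K1 and K22. The log2 FC was -0.14 ± 0.16 (SE; exact permutation p = 0.489), with a 95% interval from a 0.72-fold to a 1.15-fold level in PIV.

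THRSP encodes Spot 14, a small protein induced with the lipogenic enzymes in rodents, and MID1IP1 its relative, which in vitro promotes the polymer form of acetyl-CoA carboxylase. THRSP ranged from 8.95 over a median of 9.55 to 10.17 in CON and from 9.22 over 9.80 to 10.35 in PIV. The groups overlapped, with P30 and P31 above all CON pigs and K1 and K3 below all PIV pigs. The log2 FC of 0.30 ± 0.22 (SE; exact permutation p = 0.281) had a 95% interval from 0.89-fold to 1.71-fold. MID1IP1, near the dim limit, was at 5.01 ± 0.43 in CON and 5.13 ± 0.18 in PIV (mean ± SD, n = 6 each), with K22 at 5.83 and the other CON pigs between 4.63 and 5.04.

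The genes that supply NADPH lay still closer. ME1, the cytosolic malic enzyme, was dim and ranged from 3.77 over a median of 4.41 to 4.63 in CON and from 3.80 over 4.52 to 5.15 in PIV. P12, P31 and P50 were above all CON pigs, while P10 and P30 were near the lower end of CON. Its log2 FC was 0.12 ± 0.21 (SE; exact permutation p = 0.647). PGD, of the oxidative branch of the pentose phosphate pathway, had a log2 FC of -0.11 ± 0.13 (SE), and TKT, the transketolase of the non-oxidative branch, 0.03 ± 0.08 (SE). IDH1, the cytosolic NADP-dependent isocitrate dehydrogenase, had 3 clusters. They gave log2 FCs of 0.01, -0.14 and -0.08, so that its direction depended on the cluster chosen.

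Of the 9 elongases and desaturases, 6 had a higher and 3 a lower mean in PIV (median log2 FC 0.06). SCD, which puts the first double bond into stearate and palmitate, ranged from 9.67 over a median of 9.89 to 11.09 in CON and from 9.75 over 10.13 to 10.52 in PIV. K22 stood at the top, and the next CON pig was K42 at 10.28. The log2 FC of SCD was 0.07 ± 0.21 (SE; exact permutation p = 0.812).

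FADS1 and FADS2 encode the delta-5 and delta-6 desaturases, which make polyunsaturated fatty acids from those of the diet. FADS1 ranged from 9.84 over a median of 10.56 to 11.32 in CON and from 10.50 over 10.60 to 10.99 in PIV. FADS2 ranged from 9.49 over a median of 10.14 to 10.77 in CON and from 10.04 over 10.23 to 10.49 in PIV. For both genes K1 and K3 were below all PIV pigs, K22 was above all PIV pigs, and all PIV pigs lay within the CON range. The log2 FCs were 0.19 ± 0.19 for FADS1 and 0.16 ± 0.18 for FADS2 (SE; exact permutation p = 0.442 and p = 0.455).

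ELOVL6, which lengthens palmitate to stearate, spanned a 4.44-fold range in CON, from 5.58 over a median of 6.80 to 7.73, and ran from 6.29 over 6.69 to 6.95 in PIV. Only K3 lay below and only K22 above the PIV pigs. Its log2 FC was -0.04 ± 0.25 (SE; exact permutation p = 0.892). ELOVL2, an elongase of polyunsaturated fatty acids, spanned 4.46-fold in CON, and here K1 was the highest pig at 8.69 and K23 the lowest at 6.54. ELOVL5, another elongase of polyunsaturated fatty acids, differed by -0.07 ± 0.10 (SE), and P10 and P12 lay below all CON pigs. ELOVL1 had a log2 FC of 0.07 ± 0.15 (SE), and the dim ELOVL3 and ELOVL7 had 0.06 ± 0.10 and -0.05 ± 0.08 (SE).

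**Figure D2:**
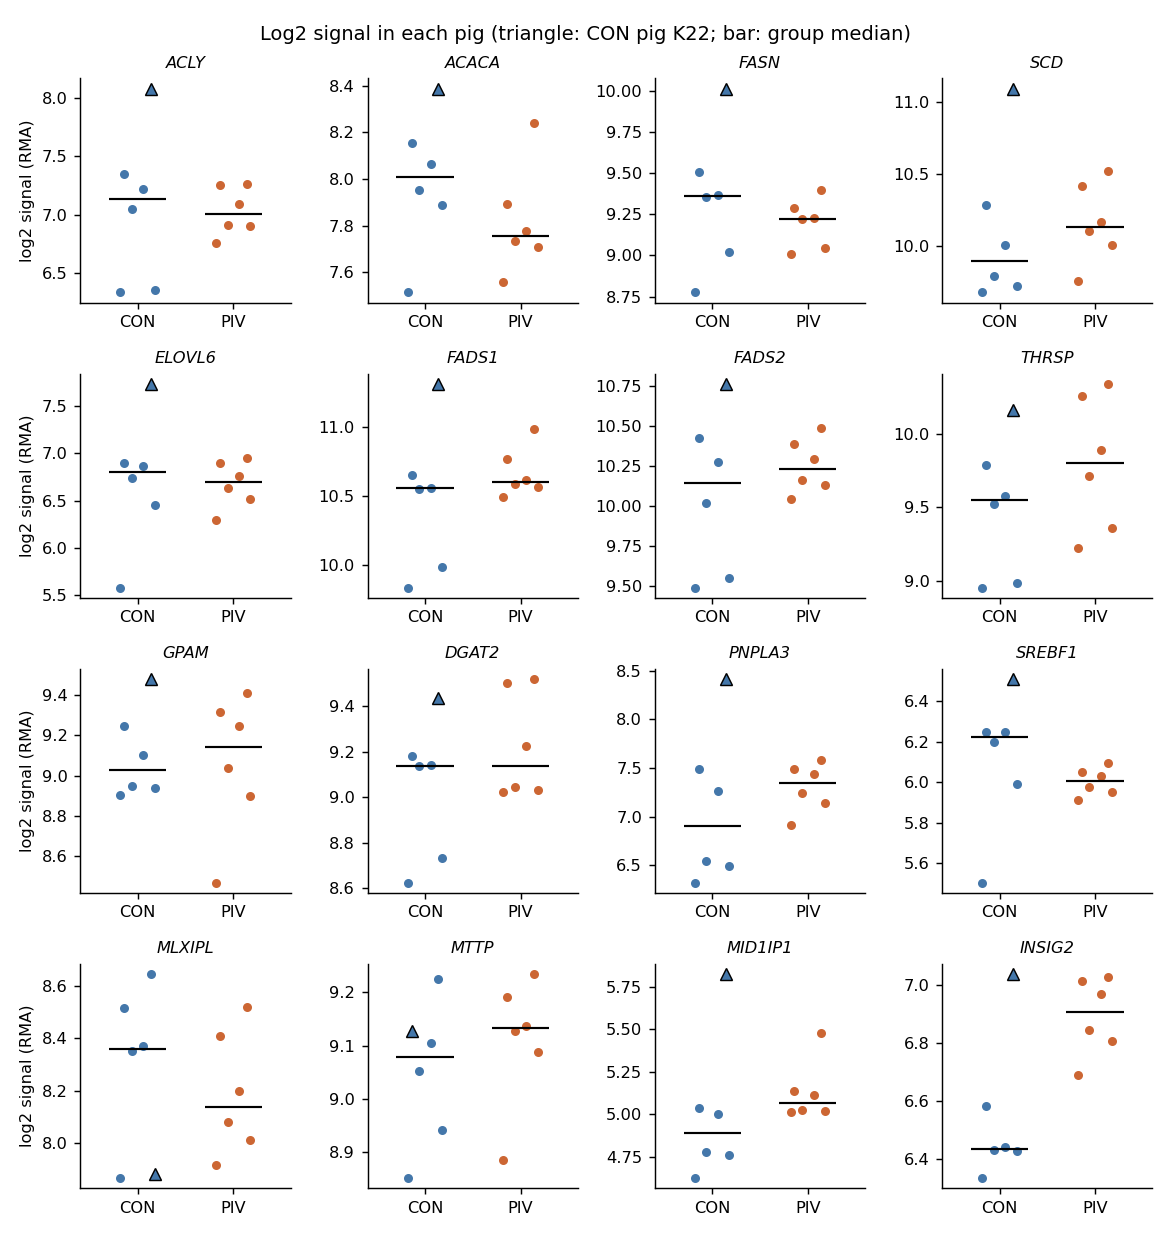
Log2 signal (y axis, a scale of its own in each panel) of 15 genes of the pathway and of INSIG2 in the 6 CON and 6 PIV pigs; points are pigs, bars are group medians and the triangle is CON pig K22. In FASN, FADS1, FADS2, ACLY and PNPLA3 all 6 PIV pigs lie between the lowest CON pig and K22, the highest. In INSIG2 all 6 lie above the 5 CON pigs other than K22.

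Of the 8 acyltransferases that build phosphatidate from glycerol 3-phosphate, 2 had a higher and 6 a lower mean in PIV, with a median log2 FC of -0.05. GPAM, the mitochondrial glycerol 3-phosphate acyltransferase of the first step, ranged from 8.90 over a median of 9.03 to 9.48 in CON and from 8.47 over 9.14 to 9.41 in PIV. The spread was wider in PIV, where P12 was the lowest of all 12 pigs. Its log2 FC was -0.04 ± 0.15 (SE; exact permutation p = 0.807). GPAT4, an enzyme of the same step in the endoplasmic reticulum, differed by -0.05 ± 0.09 (SE), and the dim GPAT3 by 0.09 ± 0.23 (SE).

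The second step belongs to the AGPAT enzymes. AGPAT2, known for its loss in an inherited lipodystrophy of humans, differed by -0.08 ± 0.11 (SE), AGPAT1 by 0.04 ± 0.08 and AGPAT3 by -0.02 ± 0.13. AGPAT5 and AGPAT4 were among the 5 smallest p of the 37 genes but were dim. AGPAT5 ranged from 4.21 over a median of 4.62 to 4.70 in CON and from 4.19 over 4.45 to 4.47 in PIV, and 4 CON pigs were above all PIV pigs. Its log2 FC was -0.15 ± 0.10 (SE; exact permutation p = 0.132). AGPAT4 ranged from 4.05 over a median of 4.32 to 4.45 in CON and from 3.90 over 4.21 to 4.36 in PIV, with P30 and P31 below all CON pigs. Its log2 FC was -0.13 ± 0.10 (SE; exact permutation p = 0.206).

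The lipins turn phosphatidate into diacylglycerol. LPIN1 had a log2 FC of 0.06 ± 0.11 (SE), LPIN2 of -0.08 ± 0.14 and LPIN3 of -0.01 ± 0.11. The SE exceeded the difference for each of the 3, and all 6 PIV pigs lay within the CON range for LPIN2 and LPIN3.

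All 4 genes of the last step and of storage and export had a higher mean in PIV, with a median log2 FC of 0.17, and none passed the filter. DGAT1, one of the unrelated pair of diacylglycerol acyltransferases, had the smallest p of the 37 genes. It ranged from 6.95 over a median of 7.20 to 7.26 in CON and from 7.07 over 7.31 to 7.52 in PIV, and 4 PIV pigs were above all CON pigs. Its log2 FC was 0.16 ± 0.09 (SE; exact permutation p = 0.0974), with a 95% interval from 0.98-fold to 1.29-fold. DGAT2, the isoform tied to newly made fatty acids in mouse liver, ranged from 8.62 over a median of 9.14 to 9.44 in CON and from 9.02 over 9.14 to 9.52 in PIV. P30 and P31 were above all CON pigs, the group medians were nearly equal, and the log2 FC was 0.18 ± 0.14 (SE; exact permutation p = 0.299).

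MTTP, the transfer protein that loads lipid onto apolipoprotein B, ranged from 8.85 over a median of 9.08 to 9.23 in CON and from 8.89 over 9.13 to 9.23 in PIV. The groups covered almost the same range, and the log2 FC was 0.06 ± 0.08 (SE; exact permutation p = 0.426). PNPLA3, a lipid droplet protein whose common human variant goes with fatty liver, ranged from 6.32 over a median of 6.90 to 8.42 in CON and from 6.91 over 7.34 to 7.58 in PIV. CON spanned 4.27-fold, with K22 at 8.42 and K1, K3 and K23 below all PIV pigs. The log2 FC was 0.21 ± 0.28 (SE; exact permutation p = 0.563).

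SREBF1, which encodes SREBP-1, ranged from 5.51 over a median of 6.22 to 6.51 in CON and from 5.91 over 6.01 to 6.09 in PIV. The 6 PIV pigs lay close together, below 4 CON pigs and above K23, and the log2 FC was -0.11 ± 0.13 (SE; exact permutation p = 0.474). The clusters do not tell the SREBP-1a and SREBP-1c forms apart, and the activity of SREBP-1 is set by cleavage of the protein, which was not measured here. MLXIPL ranged from 7.87 over a median of 8.36 to 8.65 in CON and from 7.92 over 8.14 to 8.52 in PIV. K22 and K23 were the 2 lowest of the 12 pigs, and the log2 FC was -0.08 ± 0.14 (SE; exact permutation p = 0.621).

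K22 was the highest CON pig for 23 of the 37 genes, and for 20 of the 30 brighter ones, where it was highest for 28.1% of all bright clusters. It was the highest of all 12 pigs for 19 of the 37. Without K22, 3 of 37 genes passed the filter by limma, beside 2.21% of all clusters. These were PNPLA3 (log2 FC 0.48, limma unadjusted p = 0.0288), FADS1 (log2 FC 0.35, limma unadjusted p = 0.0328) and MID1IP1 (log2 FC 0.29, limma unadjusted p = 0.0151), each higher in PIV, and no adjusted p was under 0.05. K22 was left out because it stood apart, a choice made after the values were seen.

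Several of these genes varied widely between pigs of the same group. The median SD within groups was 0.27 for the 30 brighter genes and 0.17 for all clusters of that brightness, and 14 of the 30 lay above the 90th percentile of those clusters. Without K22 the medians were 0.23 and 0.16, and 10 of the 30 lay above the 90th percentile. The SD was larger in CON than in PIV for 28 of the 37 genes, beside 64.2% of all clusters, and for 25 of the 30 brighter genes, beside 68.6% of bright clusters. The widest were PNPLA3 (0.80 in CON, 0.25 in PIV), ELOVL2 (0.71 and 0.41), ELOVL6 (0.70 and 0.25) and ACLY (0.66 and 0.20). Without K22 the SD in CON was 0.52 for PNPLA3, 0.78 for ELOVL2, 0.54 for ELOVL6 and 0.48 for ACLY. SREBF1 had an SD of 0.34 in CON (0.32 without K22) and 0.07 in PIV.

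Without K22 the SD was larger in CON for 21 of the 37 genes, beside 58.5% of all clusters, and for 19 of the 30, beside 61.4% of bright clusters. The median ratio of the SDs (CON over PIV) fell from 1.43 to 1.16, and over bright clusters from 1.27 to 1.16. An exact permutation test of the spread, chosen after the values were seen, gave an unadjusted p under 0.05 for 2 of the 37 genes, PNPLA3 (p = 0.00866) and FADS2 (p = 0.0433), where 5.67% of all clusters had one. No cluster passed after adjustment.

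**Figure D3:**
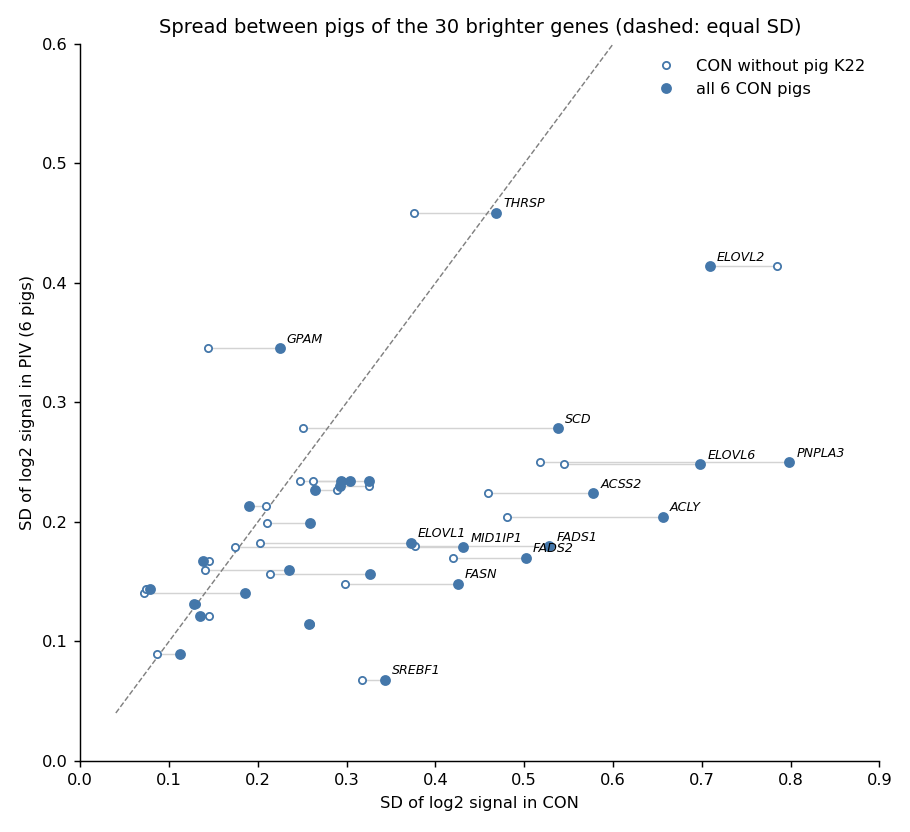
SD of the log2 signal between pigs in CON (x axis) and in PIV (y axis, 6 pigs) of the 30 brighter genes; filled points use all 6 CON pigs, open points leave out K22, and the dashed line marks equal SDs. With all pigs 25 of 30 genes lie to the right of the line, without K22 19 of 30.

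Whether the genes varied together from pig to pig was described by Pearson's r over the 12 pigs after each group's mean was removed, for 666 pairs of the 37 genes. Of these, 5 pairs had an adjusted p under 0.05 (100000 permutations within groups, Benjamini-Hochberg over the 666 pairs) and 114 had an unadjusted p under 0.05. The share of all gene pairs with such an unadjusted p was not taken, so the 114 have no background beside them. All 5 pairs with an adjusted p under 0.05 were positive, and their smallest r was 0.84. An absolute r at least that high occurred in 18 of the 435 pairs of brighter genes, 4.14%, and in 0.434% of all pairs of 6949 bright genes with a symbol. The cutoff came from the called pairs themselves, and both shares include K22 and were not taken without it. Without K1, K3, K4 or K22 in turn no pair had an adjusted p under 0.05, while r of the 5 pairs stayed at 0.70 or above whichever pig was left out.

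The closest pair was FADS1 with FADS2, at r = 0.96 (rho = 0.94, permutation p = 4e-05, adjusted p = 0.0266). FADS2 was marked as open to cross-hybridisation and FADS1 had cross-hybridisation type 3 in the annotation. Whether shared probe signal adds to their r was not tested. K1 and K3 were lowest and K22 highest for both genes, and r was 0.97 in CON and 0.87 in PIV. Without the 2 pigs farthest out in FADS1 (K1 and K22) r was 0.91, and across single pigs left out it ran from 0.94 to 0.97. THRSP with ELOVL5 had r = 0.88 (rho = 0.94, permutation p = 0.00012, adjusted p = 0.0311), with 0.90 in CON and 0.87 in PIV, and 0.86 without the 2 farthest pigs. It ran from 0.87 to 0.90 without single pigs.

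ACLY with THRSP had r = 0.86 (rho = 0.91, permutation p = 0.00014, adjusted p = 0.0311). In CON the 6 pigs stood in the same order for both genes (r = 0.99), in PIV r was 0.89, and without K3 and K22 r over both groups was 0.82. It ran from 0.83 to 0.89 without single pigs. FASN with SCD had r = 0.88 (rho = 0.83, permutation p = 0.00037, adjusted p = 0.0493), with 0.90 in CON, 0.86 in PIV and 0.75 without K1 and K22, and its lowest value without 1 pig was 0.72, without K22. ACSS2 with ELOVL5, a pair outside the 10 strongest that was named for its adjusted p, had r = 0.84 (rho = 0.77, permutation p = 0.00034, adjusted p = 0.0493) and 0.92 without K1 and K3, and its lowest value without 1 pig was 0.70, without K22. In each of these 5 pairs r was positive and at least 0.86 within each group taken alone. The pairs were chosen by r over the same pigs, so these values are not separate from that choice.

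Of the 10 pairs with the highest absolute r, 7 had an adjusted p between 0.05 and 0.11. These were ACLY with ACSS2 (r = 0.94, adjusted p = 0.0870 by permutation), FASN with PGD (0.92, 0.0540), FASN with FADS1 (0.91, 0.106), ACSS2 with PGD (0.90, 0.0870), ACLY with ELOVL1 (0.90, 0.0514), PGD with SCD (0.89, 0.0540) and FASN with FADS2 (0.89, 0.0901). In each, r was higher in CON (0.91 to 0.98) than in PIV (0.27 to 0.82). Without K22 r over both groups ran from 0.76 (PGD with SCD) to 0.89 (ACLY with ACSS2).

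**Figure D4:**
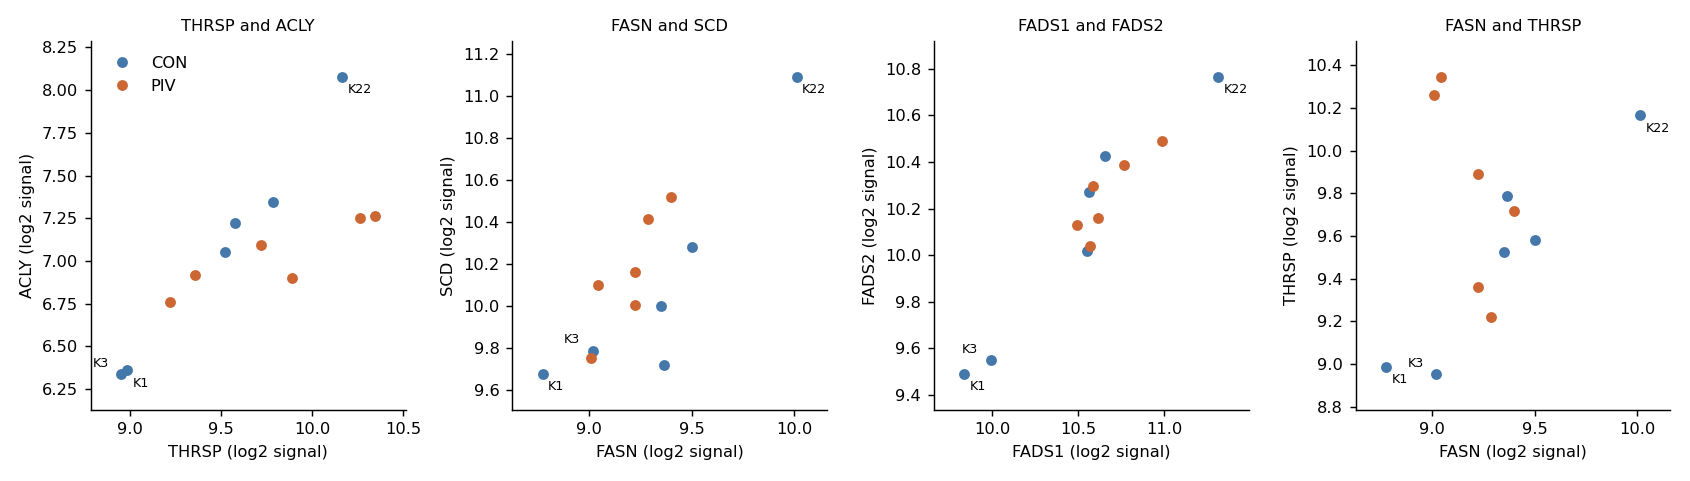
Log2 signals of 4 gene pairs against each other, each point 1 pig, CON blue and PIV orange, with CON pigs K1, K3 and K22 named. ACLY with THRSP, FASN with SCD and FADS1 with FADS2 varied together in both groups (r from 0.86 to 0.99); FASN with THRSP had r = 0.94 in CON and -0.73 in PIV.

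SREBF1, MLXIPL and THRSP were each set against 7 genes of the pathway. SREBF1 went closest with ACACA, at r = 0.80 over 12 pigs (rho = 0.74, permutation p = 0.00234, adjusted p = 0.0870). That value was 0.95 in CON and 0.59 in PIV, and it was 0.47 without K22 and K23. With the other 6 genes it was paired with, SREBF1 had r from 0.14 (ELOVL6) to 0.68 (PNPLA3), and 0.38 with FASN, none with an adjusted p under 0.05 by permutation. Single pigs moved these values. With FASN r was -0.05 without K22 and 0.78 without K23, with ELOVL6 it was -0.37 and 0.49, with ACLY -0.36 and 0.72 (0.19 over 12 pigs), and with PNPLA3 it was 0.48 without K22, where rho over 12 pigs was 0.09. MLXIPL had a negative r with ACLY, -0.79 (rho = -0.74, permutation p = 0.0058, adjusted p = 0.116), with -0.88 in CON, -0.65 in PIV and -0.75 without K3 and K22. With FASN its r was -0.58, with ELOVL6 -0.58, with GPAM -0.56, with SCD -0.36, with PNPLA3 -0.30 and with ACACA 0.16. Without K22 these values were -0.38, -0.40, -0.44, 0.04, 0.12 and 0.53 in the same order. In CON they were -0.79, -0.73, -0.34, -0.53, -0.39 and 0.10, and in PIV 0.17, -0.11, -0.83, 0.07, -0.0013 and 0.26. THRSP had r = 0.65 with ELOVL6, 0.60 with GPAM, 0.48 with PNPLA3, 0.47 with FASN, 0.27 with SCD and -0.20 with ACACA. Without K22 they were 0.49, 0.49, 0.18, 0.17, -0.26 and -0.62 in the same order, so that the sign turned with SCD.

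Over all pairs of the 30 brighter genes the median r was 0.25, beside 0.04 over all bright genes with a symbol. It was 0.38 in CON (0.07 over all bright genes) and -0.05 in PIV (0.02 over all bright genes). Without K22 it was 0.04 over both groups (0.04 over all bright genes) and 0.08 in the 5 remaining CON pigs (0.07 over all bright genes). By step of the pathway, the median r in CON among the 4 genes of the last step and export was 0.36 with K22 and 0.02 without it. Among the 7 genes of palmitate synthesis it was 0.45 and 0.54, and among the 9 elongases and desaturases 0.42 and 0.38. Over both groups it fell without K22 from 0.45 to 0.16 in the former and from 0.33 to 0.05 in the latter. In PIV the medians of these 2 sets were -0.21 and -0.02. Among the genes of the last step and export it was 0.54 in PIV, and over both groups 0.34 with K22 and 0.24 without it. For the 4 NADPH genes it was 0.74 in CON (0.56 without K22) and -0.03 in PIV. For the 8 acyltransferases it was 0.19 in CON (0.13 without K22) and -0.19 in PIV. For the 3 lipins it was -0.05 in CON (0.04 without K22) and 0.48 in PIV.

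The widest contrast among the named pairs was FASN with THRSP, at 0.94 in CON and -0.73 in PIV. Exact permutation of the group labels gave p = 0.0108 for the difference, and an adjusted p of 0.801 over the 666 pairs. PNPLA3 with SREBF1 was at 0.77 in CON and -0.70 in PIV (exact permutation p = 0.0152, adjusted p = 0.801). Of 666 pairs 39 had an unadjusted p under 0.05 for the difference between the groups, and 0 had an adjusted one. The share over all gene pairs was not taken, so the 39 are not read as a trait of these genes. This test was chosen after the values were seen. Over both groups together FASN with THRSP was at 0.17 without K22 and PNPLA3 with SREBF1 at 0.48. These values mix the r of both groups and so do not tell how the contrast stands without K22, which was not tested.

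**Figure D5:**
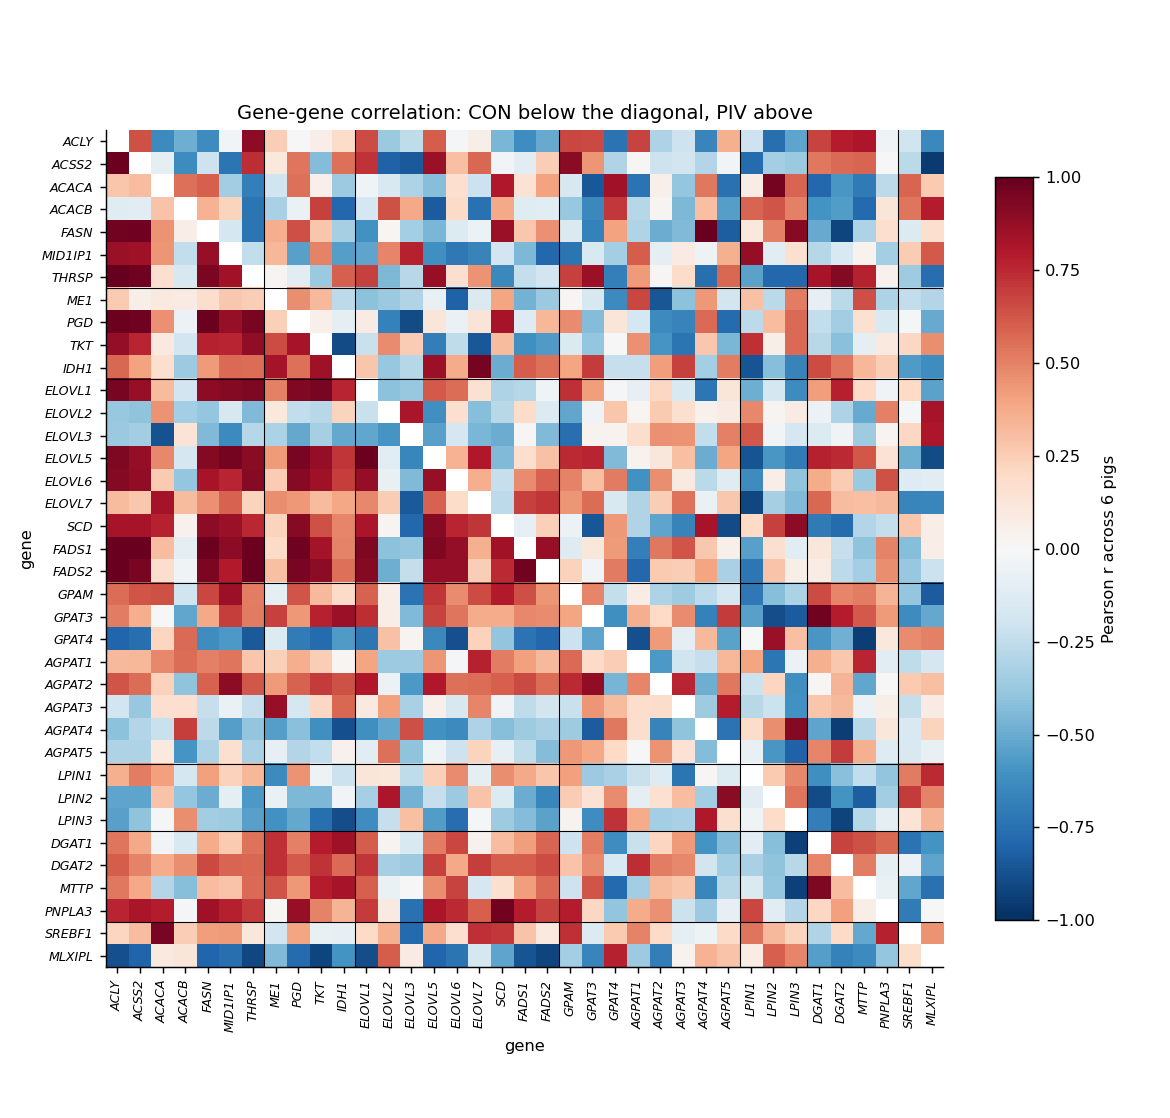
Pearson's r between the 37 genes across the 6 CON pigs (below the diagonal) and the 6 PIV pigs (above it), red for positive and blue for negative, with lines between steps of the pathway. Below the diagonal many pairs of the genes from ACLY to FADS2 are red, with ACACB, ELOVL2 and ELOVL3 as the main exceptions. ACACA, ME1 and ELOVL7 are pale with some of these genes and red with others. The median r of the 30 brighter genes was 0.38 in CON and -0.05 in PIV, and the CON median was 0.08 without K22.

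Other genes of the pathway gave a like picture. Of 90 listed partners 76 were measured, and 1 passed the filter, beside 1.82% of all clusters. The lists were partners of fatty acid synthesis such as SLC25A1 (13 measured, median log2 FC -0.07), of elongation and desaturation (10, 0.00), of fatty acid activation (11, 0.05), of glycerolipid synthesis (11, 0.02), of VLDL assembly (5, 0.01) and of the regulation of SREBP and ChREBP (26, -0.01). Apart from the last, none held a gene with an unadjusted p under 0.05 by limma.

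The gene past the filter was INSIG2, a protein of the endoplasmic reticulum that holds SCAP and the SREBP precursors there when sterols are plentiful. INSIG2 ranged from 6.34 over a median of 6.44 to 7.04 in CON and from 6.69 over 6.91 to 7.03 in PIV. All 6 PIV pigs were above 5 of the CON pigs, and K22 was above all of them. The log2 FC was 0.35 ± 0.11 (SE), a FC of 1.27 (limma, unadjusted p = 0.00676, adjusted p = 0.9996; exact permutation p = 0.0195). It was between 0.31 and 0.45 when single pigs were left out, the highest of these without K22. Its cluster was also marked as open to cross-hybridisation, with type 1 in the separate field. INSIG1, which SREBP-1 and SREBP-2 induce, was at 8.21 ± 0.30 in CON and 8.38 ± 0.32 in PIV (mean ± SD, n = 6 each), with a log2 FC of 0.17 ± 0.16 (SE).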

How the data were processed

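Liver RNA of 12 pigs was hybridised to 1 Affymetrix Porcine Gene 1.0 ST array each. The authors corrected the background, normalized across arrays and summarised probes with RMA in Expression Console (version 1.4 in the submitters' processing notes), and deposited log2 signals per transcript cluster and pig. Their log ratio, fold change and p-value columns were not used. RMA on all arrays together compresses small differences, and raw intensities were not used here. The number of arrays limits the precision.

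PIV was compared with CON with limma 3.58.1 (lmFit, eBayes) in R 4.3.3 on 25385 clusters, without 3 clusters of ribosomal RNA, with Benjamini-Hochberg adjustment over all of them. Single genes were compared with an exact permutation test over 924 assignments, whose smallest possible p is 0.00216. Correlations used 100000 permutations within groups, with 1e-05 as the smallest possible p. Of several clusters of a gene, the one with the highest mean was used. Genome positions are not given, since the build of the annotation's coordinates could not be settled. On simulated data, the filter recovered 97 of 100 clusters changed by a log2 FC of 0.5 and 100 of 100 changed by 1, and 612 unchanged clusters passed it. The changed clusters were drawn from bright ones whose SD was below the 90th percentile of all clusters. Recovery was not simulated for more variable or for dim clusters. Of the 30 brighter genes, 14 lay above the 90th percentile of SD among bright clusters.

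The labels do not give pens or litters, so each pig was taken as independent, and p-values may be too small if pen mates resembled each other. The genes were listed by name, but the lists, members included, were drawn up with earlier results of these data known. Values in full are given for 16 core genes and for the 5 smallest p, pairs for the 10 highest absolute r and for SREBF1, MLXIPL and THRSP each with 7 target genes, and partners past the filter. ACSS2 with ELOVL5, ACSS2 and the remaining genes given briefly, and INSIG1, are additions. Of the 90 partners 14 were not matched by name and are not analysed here. Alternatives were another test, variance model, array weights, normalization, scaling, brightness filter, FC threshold and cluster, and leaving out each pig.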

Additional observations from a re-analysis of the deposited data

Results flagged for a closer look

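For the 37 genes and INSIG2, 76 groups of 6 values were searched for a pig far from the others of its group, and 5 were found. Chance gives about 1 in 20. K22 stood above the other CON pigs in MID1IP1 (5.83, others 4.63 to 5.04), in ELOVL5 (9.84, others 9.34 to 9.5) and in INSIG2 (7.04, others 6.34 to 6.58). In PIV, P12 stood above the others in MID1IP1 (5.48, others 5.01 to 5.14) and P10 in GPAT4 (7.65, others 7.28 to 7.37).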

How the results depend on the processing

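No paired analysis was made, because different piglets were allocated at random to each group and no CON pig is linked to a PIV pig. The count of genes past the filter stayed 0 of 37 under each alternative other than leaving out a pig, and ran from 0 to 3 without single pigs (3 without K22, 1 without K23). INSIG2 kept its direction and passed the filter under each alternative but a FC threshold of 1.5, at which 0 partners passed. Of 666 pairs, 5 had an adjusted p under 0.05. The count was 1 with Spearman's rho, 25 with no group means removed, 2 with equal array medians, 12 with the brighter genes alone (fewer pairs) and 0 to 8 without single pigs. The cause was not tested. The median r over pairs of brighter genes was 0.04 without K22, and 0.08 in CON. Of 293 log2 FCs under other settings 10 changed sign: with array weights ACLY (0.0479), ELOVL6 (0.0544) and AGPAT3 (0.0267), with linear means ACSS2 (-0.0136), IDH1 (-0.0001), ELOVL2 (-0.10) and SCD (-0.0045), with equal medians IDH1 (-0.0097) and ELOVL2 (-0.0093), and with its second cluster IDH1 (-0.14). Without single pigs 40 of 444 changed sign, and 4 passed the filter. Their log2 FCs ran from -0.18 to 0.17 for ACLY, -0.0743 to 0.23 for ACSS2, -0.14 to 0.0029 for AGPAT2, -0.12 to 0.0499 for AGPAT3, -0.18 to 0.25 for ELOVL2, -0.0061 to 0.10 for ELOVL3, -0.26 to 0.17 for ELOVL6, -0.11 to 0.076 for GPAM, -0.0407 to 0.23 for GPAT3, -0.0584 to 0.0801 for IDH1, -0.0144 to 0.12 for LPIN1, -0.0599 to 0.0694 for LPIN3, -0.0207 to 0.25 for ME1, -0.17 to 0.0022 for PGD and -0.0156 to 0.27 for SCD. Signal over background limits the 7 dim genes.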

Other observations

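The genes outside the pathway whose levels went most closely with FASN from pig to pig, out of 6928 bright genes with a symbol, were AHCY (r = 0.95), HDHD2 (0.90), FBXO42 (0.89), ABCG5 (0.89) and HOMER2 (0.89). AHCY encodes the hydrolase of S-adenosylhomocysteine and ABCG5 a subunit of the sterol exporter into bile. These are r over 12 pigs with group means removed, given as a description, and K22 was the highest pig for FASN. Without K22 r with FASN was 0.91 for AHCY, 0.79 for HDHD2, 0.75 for FBXO42, 0.76 for ABCG5 and 0.87 for HOMER2.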
